A study of Mus musculus with 20 samples.

Results

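Hmgcs1, Mvd, Elovl5 and Agpat1, 4 enzymes that build sterols, long fatty acids and phospholipids, were followed in 4 parts of the brain of NHE1 null mice, which lack NHE1, the sodium/hydrogen exchanger of the plasma membrane that removes acid from cells. They were chosen from their null over wild-type ratios on these same arrays, so those ratios are given as a description, with no test. The 4 are among 7117 genes with a probe, and 5 probes stood for them: 2 for Hmgcs1 (IDs 174 and 6138) and 1 each for Mvd (11886), Elovl5 (8223) and Agpat1 (11075). All 5 passed the filter on missing values, which kept 9701 of 15245 probes.

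The series holds 20 cDNA arrays with 2 channels, 5 each for cortex, hippocampus, cerebellum and brain stem-diencephalon. Each array set amplified RNA of a region from an NHE1 null mutant against pooled RNA of that region from wild-type mice, the only control. On 3 arrays of a region the null RNA was in channel 1, and on 2 swapped arrays it was in channel 2. Same-numbered arrays within a region counted as 1 replicate through their mean, so cortex, with 1 unnumbered swapped array, had 4 replicates and every other region 3. The sources used here do not state strain, age, sex or the number of animals, nor whether numbers mark separate mice. How far the spread between replicates is technical is therefore not known. A gene of the Y chromosome, given below, differed between most arrays of number 1 and the others. The gene of the mutation was not analysed here. The table holds ratios and no levels, so the labelled regions could not be checked by marker genes, and in dissected tissue fewer cells of a type and less RNA per cell cannot be told apart.

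Neurons and glia make their own cholesterol, because lipoproteins of the blood do not pass into the brain. In the mevalonate pathway Hmgcs1 joins acetyl-CoA and acetoacetyl-CoA to HMG-CoA, and Mvd, several steps on, removes a carboxyl group to give isopentenyl diphosphate, the building block of sterols and isoprenoids. Elovl5 runs the rate-limiting step in lengthening polyunsaturated fatty acids, which brain membranes hold in large amounts, and Agpat1 adds an acyl chain to lysophosphatidic acid to make phosphatidic acid, the precursor of phospholipids and triglycerides. Genes of sterol and fatty acid synthesis are known targets of the SREBP transcription factors, which bind sterol response elements, often beside CCAAT boxes.

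The sequence upstream of Hmgcs1, Mvd and Elovl5 is shown because these belong to pathways under SREBP control and, with Hmgcs1 read by probe 6138, lay below 0 on most arrays. The 250 bases before a listed transcription start come from RefSeq on GRCm38.p6, and all 4 genes had an entry there. Hmgcs1 lies at chr13:119690351-119708260 on the plus strand, Mvd at chr8:122433596-122443422 on the minus strand, Elovl5 at chr9:77917365-77984519 and Agpat1 at chr17:34604195-34613449, both on the plus strand. The windows of Hmgcs1, Mvd and Elovl5 cover chr13:119690101-119690350, chr8:122443423-122443672 and chr9:77917115-77917364. Capitals mark a sterol response element (TCACNCCAC, either strand) or a CCAAT box (CCAAT, either strand).
Hmgcs1: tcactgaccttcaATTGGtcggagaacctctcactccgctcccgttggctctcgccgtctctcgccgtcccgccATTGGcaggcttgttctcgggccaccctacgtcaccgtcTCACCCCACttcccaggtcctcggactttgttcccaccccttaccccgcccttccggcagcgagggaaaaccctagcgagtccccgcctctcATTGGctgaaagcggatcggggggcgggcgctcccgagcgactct
Mvd: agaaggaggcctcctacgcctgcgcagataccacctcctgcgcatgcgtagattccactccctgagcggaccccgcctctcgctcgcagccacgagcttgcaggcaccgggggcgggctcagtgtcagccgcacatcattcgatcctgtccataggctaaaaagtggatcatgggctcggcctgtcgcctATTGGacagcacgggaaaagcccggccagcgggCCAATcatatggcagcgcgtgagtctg
Elovl5: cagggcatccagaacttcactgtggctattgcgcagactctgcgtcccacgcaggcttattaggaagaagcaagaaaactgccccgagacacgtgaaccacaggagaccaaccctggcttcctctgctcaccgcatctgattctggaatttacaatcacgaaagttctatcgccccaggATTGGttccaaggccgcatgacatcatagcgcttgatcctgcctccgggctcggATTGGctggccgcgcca
Of the 3 windows, that of Hmgcs1 held the sterol response element, with its first base at -137 from the start, beside 3 CCAAT boxes, at -237, -176 and -45. This motif lies in 1.05% of 32851 such windows. Mvd had CCAAT boxes at -60 and -27 and Elovl5 at -71 and -17, a motif in 33.8% of windows. Elovl5 also had an E-box (CACGTG, 6.02% of windows) at -161. Agpat1 has 2 listed starts, whose windows (chr17:34605611-34605860 and chr17:34608764-34609013) both lie inside the gene as annotated, and only the upstream one had a CCAAT box, at -35. A GC box (GGGCGG, either strand, 32.7% of windows) was present for Hmgcs1, Mvd and both starts of Agpat1, and no marked motifs overlapped. These matches describe letters, and binding was not measured. Whether the SREBPs have a part in the ratios was not tested.

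Values are log ratios of null over wild-type RNA, read as log2, with each array centred on its median and swapped arrays multiplied by -1. Neither the log base nor which channel is the numerator is stated. That channel 1 stands over channel 2 is likely from the order in the labels, and if it is the opposite every sign below turns. Over all probes, arrays of the same orientation correlated at -0.0181 or above (-0.0181 is the lowest within channel 1, 0.117 within the swapped arrays). A swapped array appears almost unchanged under cerebellum (as its number 1) and under brain stem-diencephalon (as its number 2) (r = 0.995 over 6750 probes, against 0.743 for the next pair of 190). With and without it are given the members' array counts, their fitted values in the mean and these regions, and the calls among the other lipid genes. Marker calls and most fitted values of other genes are given only with it. The 4 channel 1 arrays of number 1 also stood apart, with a median correlation of -0.157 with the swapped arrays, against 0.246 for the other channel 1 arrays. The arrays carried values for 6793 to 13963 probes each, and their small number limits the precision.

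Over the 4 regions the fitted mean was -0.83 ± 0.11 for Agpat1, -0.69 ± 0.06 for Elovl5, -0.58 ± 0.10 for Mvd and -0.47 ± 0.05 for probe 6138 of Hmgcs1 (SE, n = 13 each), and -0.01 ± 0.08 for probe 174 (n = 12). Of the 9701 probes tested, 0.268% lay lower than Agpat1, 0.371% lower than Elovl5, 0.649% lower than Mvd and 1.31% lower than probe 6138, while probe 174 was near the middle (44.9%). With Hmgcs1 read by probe 6138, all 4 genes lay below 0 on 17 of 20 arrays, and with probe 174 on 9 of 19. Without the repeated array the means were -0.85 for Agpat1, -0.63 for Elovl5, -0.57 for Mvd, -0.52 for probe 6138 and 0.06 for probe 174, and all 4 genes lay below 0 on 15 of 18 arrays (7 of 17 with probe 174). Of these 18 arrays Elovl5 and probe 6138 lay below 0 on 18, Agpat1 on 17 and Mvd on 15. The SE of the mean may be too small, since the repeated array counts in 2 regions and replicates of the same number may not be independent.

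Among the sterol enzymes, Hmgcs1 had probes that did not match. Its probe 6138 lay below 0 on 20 of 20 arrays. In cerebellum it had -1.002, -0.677 and -0.938 on the channel 1 arrays 1, 2 and 3, and -0.154 and -0.716 on the swapped arrays 1 and 2. In brain stem-diencephalon the channel 1 arrays had -0.889, -0.801 and -0.850, and the swapped arrays -0.486 and -0.151. The least negative value of both regions, -0.154 and -0.151, came from the array deposited under both.

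In cortex the same probe had -0.475, -0.341 and -0.371 on the channel 1 arrays, -0.168 on swapped array 2 and -0.104 on the swapped array without a number. In hippocampus it had -0.845, -0.335 and -0.339 on the channel 1 arrays and -0.297 and -0.109 on the swapped ones. The fitted ratios were -0.26 ± 0.09 in cortex (SE, n = 4), -0.32 ± 0.10 in hippocampus, -0.68 ± 0.10 for cerebellum and -0.62 ± 0.10 for brain stem-diencephalon (n = 3 each). The first pair of regions lay closer to 0 than the second. Cortex and hippocampus differed by less than these errors, as did cerebellum and brain stem-diencephalon. The F test of differences between regions (limma) passed for 0 of all 9701 probes after adjustment, so the order of regions is a description. As a linear ratio, the null RNA stood at 0.623 of wild type in cerebellum and 0.835 in cortex. Hippocampus had -0.18 without its replicate 1. Without the array deposited under both regions, the values were -0.78 in cerebellum and -0.68 in brain stem-diencephalon.

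Probe 174 of Hmgcs1 lay around 0, below it on 9 of 19 arrays with a value, with a lowest value of -0.541, a median of 0.102 and a highest of 0.434. Its fitted ratios were -0.11 ± 0.12 in cortex (SE, n = 4), -0.05 ± 0.17 in hippocampus (n = 2), 0.04 ± 0.14 for cerebellum and 0.08 ± 0.14 for brain stem-diencephalon (n = 3 each), each within its SE of 0. Without the repeated array the last pair of regions had 0.18 and 0.20. Probe 174 was higher than probe 6138 on 14 of 19 arrays, with a median difference of 0.45. The widest gap, 1.44, was on cerebellum channel 1 array 1, where probe 174 had its highest value (0.434) and probe 6138 its lowest (-1.002). Over 12 replicates the 2 probes had r = -0.552, and -0.675 without the repeated array. A value for Hmgcs1 therefore depends on the probe, and the files do not say which part of the transcript each probe reads.

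Mvd, further down the pathway, lay below 0 on 17 of 20 arrays. In cerebellum the channel 1 arrays 1, 2 and 3 had 0.0218, -0.526 and -0.552, and the swapped arrays 1 and 2 had -1.01 and -1.28. In brain stem-diencephalon they had -0.146, -0.715 and -0.421 in channel 1 and -0.741 and -1.004 when swapped. In these 2 regions every swapped array lay below every channel 1 array, and how many of all probes did so is not given here.

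In cortex Mvd had 0.225, -0.508 and -0.946 on the channel 1 arrays, -0.815 on swapped array 2 and -0.834 on the unnumbered one. In hippocampus it had 0.238, -0.490 and -0.108 on the channel 1 arrays and -0.269 and -0.829 on the swapped ones. The 3 values above 0 were all on channel 1 arrays of number 1. Fitted ratios were -0.61 ± 0.16 in cortex (SE, n = 4), -0.34 ± 0.18 in hippocampus, -0.72 ± 0.18 for cerebellum and -0.65 ± 0.18 for brain stem-diencephalon (n = 3 each). Hippocampus had the ratio closest to 0, but it ran from -0.51 without its replicate 1 to -0.16 without its replicate 2, a range that overlaps that of cortex (-0.81 to -0.42) when single replicates are left out. Without the repeated array Mvd had -0.64 in cerebellum and -0.69 in brain stem-diencephalon.

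The fatty acid elongase Elovl5 lay below 0 on 20 of 20 arrays and had an SD of 0.196 over replicates, against 0.248 for probe 6138 of Hmgcs1, 0.363 for Mvd and 0.476 for Agpat1. In cortex it had -0.454, -0.416 and -0.639 on the channel 1 arrays, -0.711 on swapped array 2 and -0.718 on the unnumbered one. In hippocampus it had -0.379, -0.779 and -0.487 in channel 1, and -0.631 and -0.705 on the swapped arrays. The 10 arrays of cortex and hippocampus spanned -0.779 to -0.379, and the other 10 arrays spread more widely.

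In cerebellum Elovl5 had -0.527, -0.443 and -0.907 on the channel 1 arrays, and -1.27 and -1.04 on the swapped arrays. In brain stem-diencephalon it had -0.110, -0.650 and -0.773 in channel 1, and -0.519 and -1.27 on the swapped arrays. The value of -1.27 is in both regions that of the array deposited under both. Fitted ratios were -0.60 ± 0.10 in cortex (SE, n = 4), -0.59 ± 0.12 in hippocampus, -0.86 ± 0.12 for cerebellum and -0.69 ± 0.12 for brain stem-diencephalon (n = 3 each), and without that array -0.73 in cerebellum and -0.59 in brain stem-diencephalon. The null RNA stood at 0.551 of wild type in cerebellum and at 0.665 in hippocampus, and regions next to each other in level differed by less than their combined error.

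Agpat1, which makes phosphatidic acid, had the lowest mean of the 4 genes and the largest SD over replicates. In cortex the channel 1 arrays 1, 2 and 3 had -0.0374, -1.14 and -0.693, swapped array 2 had -1.39 and the unnumbered one -1.46. In hippocampus the channel 1 arrays had -0.0665, -1.24 and -0.746, and the swapped arrays -0.421 and -1.64. In both regions the channel 1 array of number 1 lay near 0, while the arrays with no or another number ran from -1.64 to -0.693.

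In cerebellum Agpat1 had 0.0677, -0.789 and -0.669 in channel 1, and -0.932 and -1.24 on the swapped arrays. In brain stem-diencephalon it had -0.0371, -0.738 and -0.256 in channel 1, and -0.376 and -0.930 on the swapped arrays. Fitted ratios were -0.96 ± 0.19 in cortex (SE, n = 4), -0.94 ± 0.22 in hippocampus, -0.84 ± 0.22 for cerebellum and -0.56 ± 0.22 for brain stem-diencephalon (n = 3 each). The null RNA stood at 0.513 of wild type in cortex and 0.677 in brain stem-diencephalon, and regions next to each other in level differed by less than their combined error. Without the repeated array Agpat1 had -0.81 in cerebellum and -0.67 in brain stem-diencephalon.

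**Figure D1:**
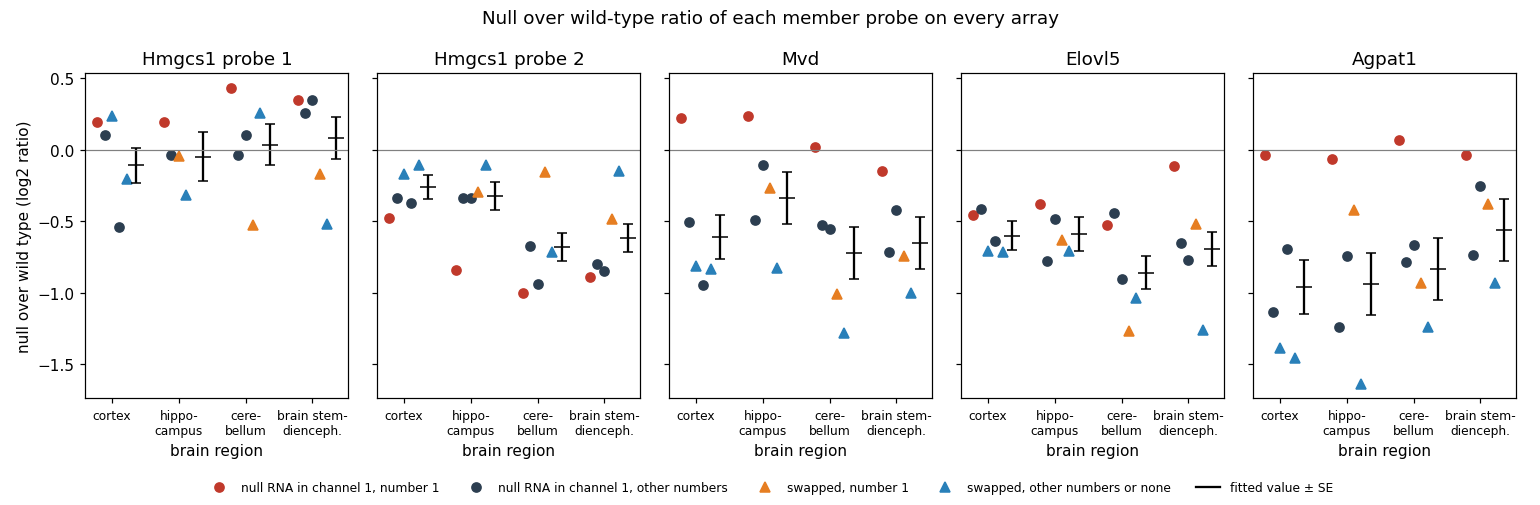
Each panel plots 1 probe, with the log2 ratio of null over wild type on the vertical axis and the 4 regions on the horizontal one. Circles are arrays with null RNA in channel 1, triangles swapped arrays, red and orange mark number 1, and the bar is the fitted value ± SE. Elovl5 and probe 2 of Hmgcs1 (ID 6138) lie below 0 on all 20 arrays, while Mvd and Agpat1 have their red circles between -0.146 and 0.238.

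The array number and the orientation both moved with these values. On the 4 channel 1 arrays of number 1 Agpat1 had -0.02 ± 0.06 (SD), against -0.78 ± 0.30 on the other 8 channel 1 arrays, a difference of 0.77 that 99.5% of all probes lay below. Mvd had 0.08 ± 0.18 on the same 4 arrays and -0.53 ± 0.24 on the other 8, a difference of 0.62 that 98.8% of all probes lay below. The values of Agpat1 did not overlap between these sets of channel 1 arrays, and those of Mvd overlapped in 1 array of each. The share of all probes without such overlap is not given here, so this is a description. Elovl5 had -0.37 ± 0.18 on the number 1 arrays against -0.64 ± 0.18, and probe 6138 went the other way, with -0.80 ± 0.23 against -0.58 ± 0.26. Of all probes 87% lay below the difference of Elovl5 and 20.8% below that of probe 6138, so these stand out less.

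The 3 swapped arrays of number 1 had -0.421, -0.932 and -0.376 for Agpat1 (hippocampus, cerebellum and brain stem-diencephalon in this order), of which the cerebellum array is the repeated one. The other 5 swapped arrays ran from -1.64 to -0.930. By orientation, Agpat1 had -0.53 ± 0.45 on 12 channel 1 arrays and -1.05 ± 0.47 on 8 swapped arrays (SD), Mvd -0.33 ± 0.37 and -0.85 ± 0.29, and Elovl5 -0.55 ± 0.22 and -0.86 ± 0.29. Probe 6138 of Hmgcs1 had the opposite order, with -0.66 ± 0.26 on channel 1 arrays and -0.27 ± 0.22 on swapped ones. For channel 1 minus swapped, 96.5% of all probes lay below Agpat1, 96.5% below Mvd, 84.1% below Elovl5 and 9.93% below probe 6138. The 8 swapped arrays count the repeated array under both regions. Without it the 6 others had -1.09 ± 0.55 for Agpat1, -0.79 ± 0.32 for Mvd, -0.72 ± 0.17 for Elovl5 and -0.31 ± 0.24 for probe 6138. The fit averages both orientations within a number and holds a term for the rest. That term rests on few replicates. Replicate 3 of every region and cortex replicate 1 had channel 1 arrays alone. The unnumbered cortex array was the only replicate with a swapped array alone. The orientation term is therefore partly confounded with the array number.

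Eif2s3y, a gene of the Y chromosome, followed the array number too. It lay between -1.36 and -0.652 on the channel 1 arrays of number 1 and at -0.995 and -0.437 on the 2 swapped arrays of number 1 that appear once. It lay between 0.935 and 1.71 on the 12 arrays of other numbers with a value. The repeated array had 1.71 under cerebellum number 1, on the side of the other numbers. The fit averaged it with cerebellum channel 1 array 1, which lay on the opposite side, so replicate 1 of cerebellum holds both. Whether the sex of the mice has a part in the difference of Agpat1 and Mvd between numbers was not tested.

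**Figure D2:**
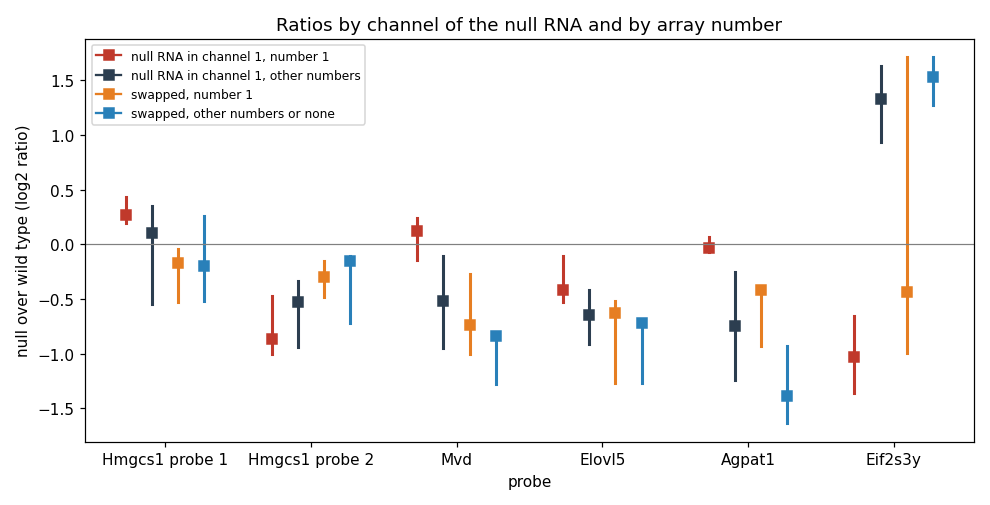
For each member probe and for Eif2s3y, squares give the median and lines the lowest to highest log2 ratio of null over wild type in 4 sets of arrays (channel 1 or swapped, number 1 or other). Agpat1 and Mvd lie near 0 on the channel 1 arrays of number 1 (medians -0.0373 and 0.123), where Eif2s3y has a median of -1.03 against 1.33 on the other channel 1 arrays.

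Markers of cell types were few after the filter. The neuronal list (Nefl and Tubb3, 2 of 7 genes) had median ratios of -0.212 to 0.162 on the channel 1 arrays of number 1, -0.432 to 0.00259 on the other channel 1 arrays, -0.605 to -0.350 on the swapped arrays of number 1 and -0.731 to -0.407 on the other swapped arrays. Like Agpat1 and Mvd, this list had lower medians on swapped than on channel 1 arrays, also without the repeated array (-0.447 and -0.588 on the swapped arrays of number 1 and the others). In the mean of the regions Tubb3 fell by 0.66 ± 0.11 (adjusted p = 0.00128), while Nefl had -0.05 ± 0.07. Mbp, the only myelin gene of 11 with a value, ranged from -0.0824 to 0.558 on the channel 1 arrays of number 1 and from -1.05 to 0.445 on the other channel 1 arrays, and its medians were -0.214 on the swapped arrays of number 1 and -0.302 on the other swapped arrays, against 0.263 and -0.20 on channel 1 arrays. Without the repeated array the swapped medians were -0.103 and -0.124. Per array, the median of the astrocyte markers (3 of 9 genes) lay between -0.255 and 0.329. That of the microglial ones (3 of 8) lay between -0.514 and 0.914. The median of the vessel and blood markers (2 of 8) ran from -0.547 to 0.932, and Ttr, the only choroid plexus marker of 6, from -2.72 to 1.87. Single markers can lie outside such medians. In the mean Pecam1 fell by 0.44 ± 0.06 (adjusted p = 0.000672), Hbb-b1 rose by 0.52 ± 0.10 (adjusted p = 0.00341) and Slc1a3 rose by 0.15 ± 0.05 (adjusted p = 0.043). The other astrocyte markers, Aldoc and Gja1, had -0.06 ± 0.06 and 0.001 ± 0.05 (limma adjusted p = 0.493 and 0.99). Of all probes 25.7% passed in the mean, so single marker calls are common. No microglial or myelin probe passed there (0 of 4, 1 at an unadjusted p under 0.05, limma). Ttr had a mean of -0.35 ± 0.11 (adjusted p = 0.0291) with signs that differed by region. It was above 0 in hippocampus (0.65) and below it in cerebellum (-1.07), cortex (-0.65) and brain stem-diencephalon (-0.31). The microglial median was above 0 in cerebellum (0.42) and brain stem-diencephalon (0.24), and below it in cortex (-0.29) and hippocampus (-0.21). In the F test between regions Ttr and all 3 microglial probes had an unadjusted p under 0.05, and 0 passed after adjustment. The part of these cell types in the members' values was not tested.

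The members also differed from each other over the replicates. Mvd and Agpat1 had r = 0.666 and Mvd and Elovl5 r = 0.539 (13 replicates each), while probe 6138 of Hmgcs1 had r = -0.629 with Agpat1 and -0.161 with Mvd. Probe 174 of Hmgcs1 had the opposite sign, at 0.401 with Agpat1 and 0.558 with Mvd (12 replicates). Without the repeated array these 6 values were 0.728, 0.546, -0.670, -0.247, 0.507 and 0.563 in the same order. Replicates share the wild-type pools, the numbers and the orientations, so these are descriptions. Among 5990 probes with a value in all 13 replicates, the genes most like Mvd in their ratios were Cbr2 (r = 0.950), Pcif1 (0.949) and Mrpl23 (0.941), with mean ratios of 0.00, 0.05 and 0.01. Those most like Agpat1 were Eef2 (0.916), Arl2 (0.912) and Aup1 (0.912), with mean ratios of 0.03, -0.10 and -0.44. Elovl5 was nearest to Cox8a (0.903), Tomm5 (0.864) and Atp5l (0.847), with mean ratios of -0.53, -0.19 and -0.24. Those nearest to probe 6138 were Jarid2 (0.887), Atp5md (0.832) and Shmt1 (0.800), with -0.14, -0.11 and 0.03. None of these genes is in the lipid lists.

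The other genes of lipid synthesis, transport and control were tested to see how far they moved with the members. The 5 lists held 116 genes, of which 61 had a probe and 51 passed the filter, with 69 probes. In the mean of the regions 12 of the 69 probes passed (17.4%; limma, Benjamini-Hochberg over all probes, threshold 0.05), against 25.7% of all 9701 probes. Of these 7 were higher in the null mutants and 5 lower, against 13.2% and 12.5% of all probes. The median of the 69 was -0.00 (-0.00465), beside 0.01 for all probes. Apart from probe 174 every member probe had a lower mean than each of the 69. The members were chosen from these ratios and the 69 were not, so this gap is no test of a difference.

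In cholesterol synthesis Sqle, squalene epoxidase, fell by 0.23 (SE 0.06, n = 13, adjusted p = 0.0141) and was lower in 12 of 13 replicates, and it was the only 1 of 10 probes (8 genes) to pass. Its adjusted p was 0.0509 with the replicate number as a block and 0.0861 without the unnumbered cortex array. Lss, which closes the sterol ring, had -0.19 ± 0.09, Idi1, which follows Mvd in the pathway, -0.19 ± 0.12, and the 2 probes of Msmo1 -0.17 ± 0.07 and 0.08 ± 0.08. The list's median was -0.06, with 6 of 10 probes below 0. In the sterol sensing list Srebf1, an SREBP transcription factor, rose by 0.26 ± 0.07 (adjusted p = 0.0123) in 12 of 13 replicates, but had 0.16 without the unnumbered cortex array (adjusted p = 0.15). Scap, the escort protein of the SREBPs, had -0.09 ± 0.08 and Mbtps1, a protease that cuts them, 0.01 ± 0.06.

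In the fatty acid list 5 of 20 probes (14 genes) passed, 3 higher and 2 lower, with a median of -0.04. Both probes of Fasn, the fatty acid synthase, fell, by 0.22 and 0.20 (SE 0.05 and 0.06, adjusted p = 0.00751 and 0.022), in 10 and 9 of 13 replicates. Without the unnumbered cortex array their limma adjusted p was 0.0562 and 0.0922, and that of the second probe was 0.146 with no orientation term. Hacd2, the dehydratase of the elongation cycle in which Elovl5 works, rose by 0.25 ± 0.05 in 13 of 13 replicates (adjusted p = 0.0022). A probe of Me1, malic enzyme, rose by 0.35 ± 0.07 in 12 of 13 (adjusted p = 0.00327), with 0.06 ± 0.05 for its other probe, and Acsl5, an acyl-CoA synthetase, rose by 0.19 ± 0.06 (adjusted p = 0.024), with 0.14 without the unnumbered cortex array (adjusted p = 0.198) and 0.10 without the repeated array as well. Tecr, the last enzyme of the elongation cycle, had -0.24 ± 0.09, the desaturase Scd2 -0.19 ± 0.07, Elovl1 0.13 ± 0.06, and the 4 probes of Elovl6 -0.12, -0.12, -0.09 and -0.01.

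In the phospholipid list 3 of 25 probes (19 genes) passed. Agpat5, of the same family as Agpat1, fell by 0.21 ± 0.07 in 12 of 13 replicates (adjusted p = 0.0321), but had -0.12 without the unnumbered cortex array (adjusted p = 0.288) and -0.07 without the repeated array as well. A probe of Lpcat1, which acylates lysophosphatidylcholine, fell by 0.27 ± 0.07 in 8 of 12 (adjusted p = 0.0168), beside -0.13 ± 0.08 for its other probe. The limma adjusted p of the first Lpcat1 probe was 0.0836 without the unnumbered cortex array. A probe of Pcyt1a, which controls phosphatidylcholine synthesis, rose by 0.26 ± 0.05 (adjusted p = 0.00341), with 0.13 and 0.01 for its other probes. The acyltransferase Mboat2 had -0.17 ± 0.07, Pgs1, which makes the precursor of cardiolipin, -0.13 ± 0.07, the phosphatidate phosphatase Lpin2 0.09 ± 0.05 and the probes of Cept1, a choline and ethanolamine phosphotransferase, 0.09 and -0.02. In the transport list 2 of 11 probes (7 genes) passed, both of Vldlr, a lipoprotein receptor, at 0.29 ± 0.09 (n = 13) and 0.54 ± 0.16 (n = 10), with adjusted p = 0.0293 and 0.0278. Without the unnumbered cortex array the limma adjusted p of the Vldlr probes was 0.0662 and 0.0856. The probes of Lrp1, another lipoprotein receptor, had -0.19 and -0.16, those of Npc1 and Npc2, which carry cholesterol out of lysosomes, 0.10 and 0.05 and 0.05 and 0.02, and the cholesterol exporter Abca1 0.06.

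**Figure D3:**
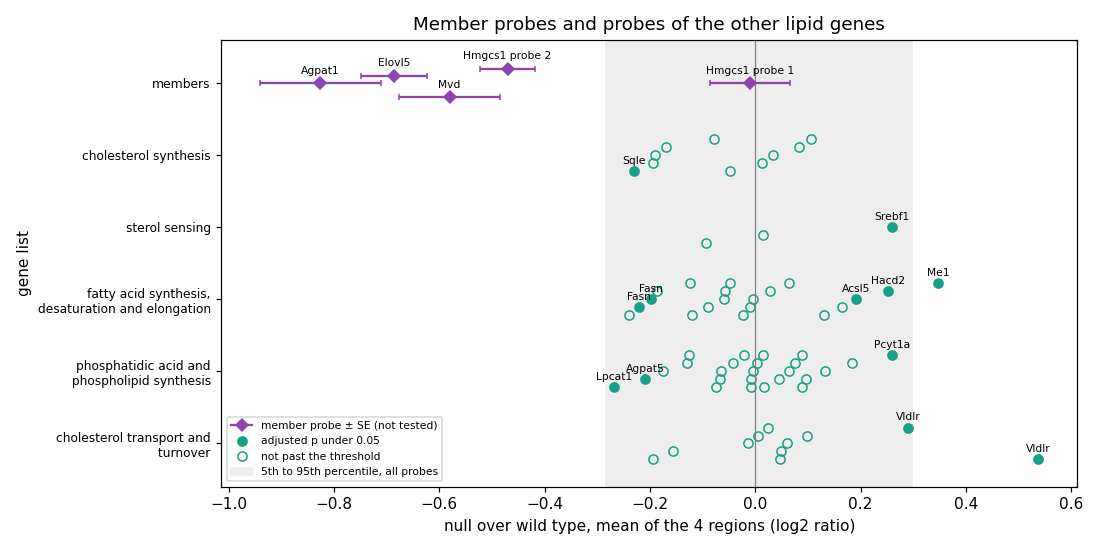
The horizontal axis is the log2 ratio of null over wild type in the mean of the 4 regions, and each row is a gene list. Diamonds are the member probes ± SE, filled circles are probes of other lipid genes with adjusted p under 0.05, and the grey band spans the 5th to 95th percentile of all probes. The members other than probe 1 of Hmgcs1 (ID 174) lie left of the band, from -0.83 to -0.47, and all other lipid probes lie at -0.27 or higher. The members were chosen from these ratios.

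By region few of the 69 probes passed. In cerebellum a probe of Me1 rose by 0.60 ± 0.13 (adjusted p = 0.0332) and a probe of Pcyt1a by 0.43 ± 0.10 (adjusted p = 0.0395), each in 3 of 3 replicates. The other probe of Me1 had 0.16 there (adjusted p = 0.293) and those of Pcyt1a 0.29 and 0.04 (adjusted p = 0.318 and 0.882). The 2 calls are 2.9% of the list probes against 3.1% of all probes (1.39% higher and 1.71% lower). In cortex 0 passed with limma (12 at an unadjusted p under 0.05, all probes 3.43%), in hippocampus 0 (7 unadjusted, 0.474%) and in brain stem-diencephalon 0 (5 unadjusted, 0.361%). The F test of differences between regions passed for 0 of the 69 probes (0 also at an unadjusted p under 0.05) and for 0% of all probes.

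These calls rested on few arrays. Without the array deposited under both regions 7 of the 12 calls in the mean were kept, with 17.3% of all probes called. They were those of Sqle, Srebf1, Hacd2, Me1, Pcyt1a, 1 probe of Fasn and 1 of Vldlr. The cerebellum calls ended (limma adjusted p = 0.0852 for Me1 and 0.184 for Pcyt1a), with 0.515% of all probes called there. The count was 4 (10.1% of all probes) without cortex replicate 4, the unnumbered array and the only replicate with a swapped array alone. It was 6 without replicate 2 of hippocampus or of brain stem-diencephalon (15.2% and 15.1%). Without both the repeated and the unnumbered array it was 0 (limma, 12 at an unadjusted p under 0.05), with 1.25% of all probes called. Without every array of number 1 it was 19 (34.7% of all probes), of which 11 were among the 12, with Vldlr at 0.47 and 0.98. Cortex had 9 calls without cortex replicate 1 (18.4% of all probes) and 3 without hippocampus replicate 1 (7.95%). Cerebellum had 0 without hippocampus replicate 2 or any replicate of its own (0.124% to 1.15% of all probes). It had 1 without cortex replicate 2 or 4 or brain stem-diencephalon replicate 3 (1.19% to 1.64%). With every array counted as a replicate the mean of the regions had 23 (43.1% of all probes).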

How the data were processed

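Per array, the authors deposited log ratios of one channel to the other, with medians of 0.00862 to 0.0609, read here as log2. Log base, channel order, background correction and normalization: not given in the sources used here. RNA was amplified, per the labels. Each array was centred on its median and swapped arrays were multiplied by -1. Symbols came from the platform annotation, updated by Entrez ID to GRCm38.p6 (9496 of 9604 single symbols matched, 213 probes had several symbols and 5428 none). The filter asked of a probe 3 arrays or more per region, with 1 or more per orientation. Means of same-numbered arrays within a region gave 13 replicates. limma 3.58.1 in R 4.3.3 fitted a term per region and 1 for orientation, and lmFit and eBayes results were adjusted by Benjamini-Hochberg at 0.05 (prior degrees of freedom 6.15, residual 8 for complete probes). The spread of the wild-type pools, the sole controls, does not enter. The fit was tested on simulated data. Members and lists were chosen with earlier results of these data known. Named beside the members were list probes that passed, up to 4 genes per list with the smallest p, and the 3 genes most alike per member. Alternatives covered centring, scale, filters, orientation, averaging, moderation, single replicates and a replicate block.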

Additional observations from a re-analysis of the deposited data

How the results depend on the processing

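The means over the regions of Mvd, Elovl5, Agpat1 and probe 6138 of Hmgcs1 were below 0 under all 15 alternatives other than leaving out single replicates. They ran from -0.85 to -0.33, -0.86 to -0.55, -1.07 to -0.53 and -0.66 to -0.27, and over the replicates left out from -0.63 to -0.53, -0.75 to -0.64, -0.94 to -0.74 and -0.49 to -0.43. Probe 174 of Hmgcs1 ran from -0.16 to 0.12 and lay below 0 under 8 of 14 alternatives. With single replicates left out its values took both signs in every region. By more than the SD over replicates, its sign turned in cerebellum without the channel 1 arrays of number 1 (-0.10) and on swapped arrays alone (-0.13). In brain stem-diencephalon it did so on swapped arrays alone (-0.35). The alternatives without every array of number 1, and without both the repeated and the unnumbered array, were chosen after seeing the data.

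Calls among the 69 list probes in the mean (12) numbered 5 on the 16 complete probes, 23 with every array as a replicate, 7 without the repeated array, 20 without the channel 1 arrays of number 1, 19 without every array of number 1, 0 without the repeated and unnumbered arrays (limma, 12 at an unadjusted p under 0.05), and 4 to 16 over the replicates left out. In cortex (0) they numbered 1 with values as deposited, on complete probes and without the repeated array, 5 with every array as a replicate, 10 without the channel 1 arrays of number 1, 12 without every array of number 1, 4 with the replicate block, and 0 to 9 over the replicates left out. In cerebellum (2) there was 1 after scaling to one spread, on complete probes, with the loose filter and with no orientation term, 4 with every array as a replicate, 0 without the repeated array (with or without the unnumbered one), with a variance trend and robust moderation and with probes of a gene averaged, and 0 to 3 over the replicates left out. Hippocampus (0) had 4 and brain stem-diencephalon (0) had 3 with every array as a replicate, and 3 and 1 without every array of number 1. Of all probes these settings called 6.28% and 3.9%, and 4.95% and 2.67%. Over all probes the mean had 2490 calls (25.7%), 1562 with the replicate block (16.1%) and 121 without the repeated and unnumbered arrays (1.25%). The share was 38.1% on complete probes and 43.1% with every array as a replicate. It was 17.3% without the repeated array, 37.5% without the channel 1 arrays of number 1 and 34.7% without every array of number 1. In cortex it was 17.3% without the channel 1 arrays of number 1, 23.9% without every array of number 1 and 14.3% with every array as a replicate. The causes were not tested.

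The labels do not say that a number pairs regions. Same-numbered replicates of different regions correlated at -0.237 to 0.719 after the fit (18 pairs, median 0.224), against a median of -0.14 for other pairs, and 4 of 12 had their highest correlation with their own number. The numbers were not taken as a pairing, although Eif2s3y followed them. With the replicate number as a block (consensus correlation 0.228), 8 list probes were called in the mean, all among the 12, and the calls of Sqle, Agpat5, 1 probe of Fasn and 1 of Vldlr ended (adjusted p = 0.0509, 0.0576, 0.0564 and 0.0509).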
